A study of Homo sapiens with 16 samples.

Results

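The auxin and water MED1 peak lists of the MED14-AID line, both without Nutlin-3a, were compared to see where Mediator subunit MED1 stayed on chromatin after MED14 depletion. The water list held 463 peaks and the auxin list 53, so 516 of the 3464 peaks in the 6 lists of the series enter. Peaks were paired when they shared at least 1 bp. A water peak with a partner is called kept and one without is called lost. HCT116 cells are a human colorectal carcinoma line. The cells of both groups were edited with CRISPR/Cas9 and had the genotype OsTir1+/-;Med14-AID+/+, so the water control carries the degron tag and OsTIR1 as well. They received water as a mock treatment or 500 µM auxin (IAA) for 3 h, and no Nutlin-3a. Chromatin was precipitated with a MED1 antibody. Each group had 1 MED1 library and 1 input, which makes 4 of the 16 samples, and the peak lists are those of the MED1 libraries. Positions were also looked up in 4 further lists. In the same line, water or auxin was followed by Nutlin-3a for 1 h, with 1 MED1 library each. Nutlin-3a keeps MDM2 off p53 and so stabilises p53. Unmodified (WT) HCT116 cells received DMSO or Nutlin-3a, with 2 MED1 libraries behind each list. The labels do not give the number of edited clones, and no MED14 protein measurement is among the data analysed here. Of the 53 auxin peaks, 12 stand at positions picked by their pattern over the lists, and the kept share and the summit ratio are also given without them. An exchange or mixing of the auxin libraries cannot be told apart from correct labels here, and was not tested.

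Mediator is a large complex that bridges transcription factors bound at enhancers and promoters to RNA polymerase II. MED14 is its backbone subunit, which holds the head, middle and tail modules together. MED1 is a subunit of the middle module that many activators, nuclear receptors among them, contact directly, and dense MED1 signal over neighbouring sites is a usual mark of large enhancer clusters. The auxin-inducible degron (AID) is a plant-derived tag: in the presence of auxin, the plant protein OsTIR1 marks the tagged protein for destruction by the proteasome. A MED1 peak in auxin-treated cells therefore reports MED1 that could still be precipitated at that position after 3 h of treatment.

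For each peak the lists give a fold enrichment, its p and q as −log10 values, and a summit, the base with the highest pileup. Fold and −log10 p together fixed a whole number of reads at the summit for 100% of the peaks in both lists, within 0.001 of the deposited −log10 p. Summits held 21 to 940 reads in the water list (median 36) and 29 to 373 in the auxin list (median 51). Because the libraries differ in depth, summit height is given below as a multiple of the lowest background in the same list. By that background, the auxin library was 1.25 times as deep as the water library. The scaling allows for depth alone. A difference between the single libraries in how well MED1 was precipitated would stay in every ratio, and was not tested. The lists also reached different limits. The lowest −log10 p was 5.64 in the water list and 7.60 in the auxin list. Each treatment had 1 library, so a spread between replicates cannot be given and no test between water and auxin was made. Intervals on shares (Wilson, 95%) cover the counting of peaks, intervals on medians are 95% order-statistic intervals over peaks, and intervals on summit ratios (exact, 95%) cover the counting of reads.

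MED1 was listed at few positions after auxin. Of the 463 water peaks, 44 were kept and 419 were lost, a kept share of 9.50% (7.16 to 12.5%). The kept share of the same comparison with Nutlin-3a in both groups was 9.004% (47 of 522 peaks), and the intervals overlapped. Counted in bases, the loss was larger: the water peaks covered 466.3 kb, the auxin peaks 38.1 kb, and 31.3 kb was covered in both, which is 6.71% of the water bases. Even within the 44 kept water peaks, 55.2% of the bases were covered by an auxin peak. The median kept peak had a fold of 6.42 with water (95% interval 5.68 to 9.01), and the median lost peak 4.32 (4.18 to 4.40). Kept and lost peaks had median widths of 844.5 bp and 826 bp with water, and their intervals overlapped. Summits of the 44 pairs lay a median of 49 bp apart (19 to 106 bp), and 37 pairs had summits within 150 bp of each other. The auxin summit fell inside the water peak in 43 of 44 pairs. The exception was chromosome 16, 3071111 to 3071692 (all positions are hg19), singled out after its values were seen.

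The 12 kept peaks with the highest fold with water had folds of 10.6 to 40.5 there, and all 12 were also in the 4 further lists. The summit was lower with auxin in 11 of them, and in 9 the interval of the ratio lay below 1. At chromosome 2, 3522319 to 3523396, the peak with the highest fold in both lists, the summit held 386 reads with water and 373 with auxin, a depth-scaled ratio of 0.775 (0.670 to 0.896). The deposited fold at that position was higher with auxin, 46.1 against 40.5, because its local background was 1.71 times the lowest with water and 1.14 times with auxin. Fold and summit height gave opposite directions in 7 of the 44 pairs. Chromosome 19, 6199203 to 6200092, held 258 and 242 reads (ratio 0.752, 0.629 to 0.900). Chromosome 12, 13080161 to 13080971, held 227 and 179 reads, and its ratio was 0.632 (0.517 to 0.773).

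The ratios of the other 9 ranged from 0.325 to 1.01. Chromosome 4, 3748057 to 3748836, held 162 reads with water and 174 with auxin (ratio 0.861, 0.691 to 1.07). Chromosome 17, 27278229 to 27279146, held 128 and 124 reads (ratio 0.777, 0.602 to 1.00). Chromosome 21, 30257298 to 30258137, held 91 and 115 reads, and its ratio of 1.01 (0.763 to 1.35) was the only one of the 12 that was not below 1. Chromosome 20, 1820010 to 1820970, held 105 and 70 reads (ratio 0.535, 0.389 to 0.730). Chromosome 6, 159151127 to 159152827, held 146 reads with water and 67 with auxin (0.368, 0.271 to 0.495). Chromosome 12, 52538620 to 52544435, had the lowest ratio of all 44 pairs, 0.325 (0.211 to 0.489), from 84 and 34 reads. Chromosome 4, 30758241 to 30760282, held 78 and 39 reads (0.401, 0.266 to 0.596). The last 3 were also the pairs with the lowest ratio of fold, with log2 ratios of −1.23 on chromosome 6, −1.28 on chromosome 12 and −1.19 on chromosome 4. Chromosome 1, 231473310 to 231474091 (ratio 0.597), and chromosome 10, 27389061 to 27389905 (ratio 0.667), complete the 12, each with an interval below 1.

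Over all 44 pairs, the median log2 ratio of fold, auxin over water, was −0.27 (−0.49 to −0.07), and that of summit height was −0.37 (−0.58 to −0.17), a ratio of 0.776. The summit was lower with auxin in 32 pairs and the fold in 29. The interval of the summit ratio lay below 1 in 18 pairs, held 1 in 26 and lay above 1 in 0. A kept position had to reach the limit of the auxin list, so a weak water peak could be kept only if its summit fell little or rose. The strong pairs are therefore given apart, leaving out the kept peak at over 4 times the lowest background. Strong here means a summit of at least 12 times the lowest background with water, a limit chosen after the values were seen. Of 23 strong pairs, 22 had a lower summit with auxin, 16 of them with an interval below 1, and the median ratio was 0.667 (0.535 to 0.752). Of 20 weaker pairs, 10 had a lower summit, 2 with an interval below 1, and the median ratio was 0.997 (0.802 to 1.07). Of these 20, 8 belong to a group of 12 positions described below.

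**Figure D1:**
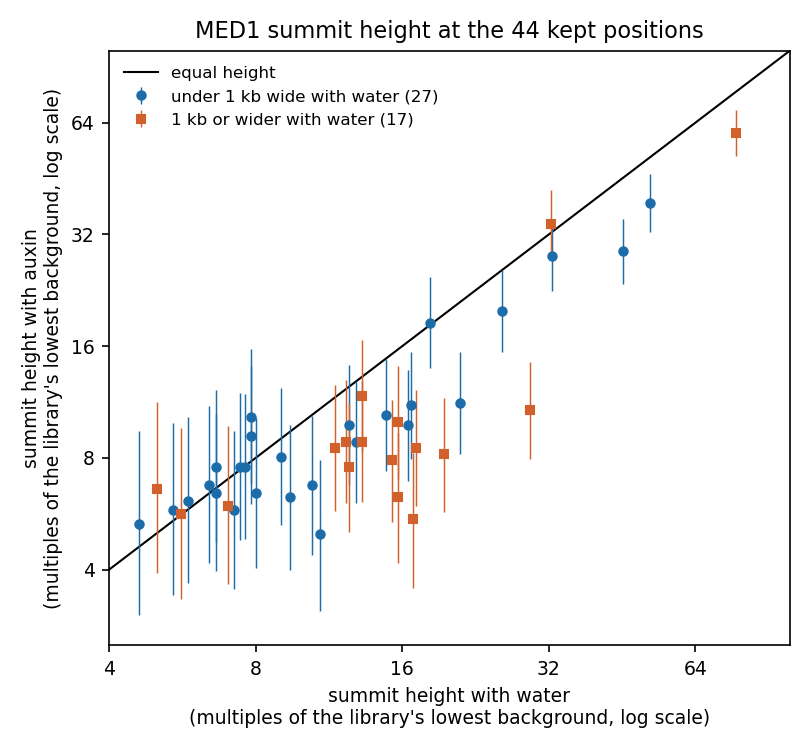
Summit height with auxin against summit height with water at the 44 kept positions, both as multiples of the lowest background of the library, on log scales. Points are single peaks, bars are exact 95% intervals of the ratio from read counts and the line marks equal height. Of the 23 strong peaks at a background of at most 4 times the lowest, 22 lie below the line, with a median ratio of 0.667 over the 23. The exception is chromosome 21, 30257298 (1.01); chromosome 1, 142537392, at a higher background, also lies above (1.06), and weaker peaks lie around the line.

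The auxin peaks at kept positions were mostly narrower than the water peaks. The auxin peak was narrower in 35 of 44 pairs, with a median log2 width ratio of −0.27 (−0.46 to −0.18), a ratio of 0.831. It lay wholly inside the water peak in 29 pairs. A split at 1 kb of water width was chosen after the values were seen. The 17 kept peaks of 1 kb or more with water went from a median of 1707 bp to 955 bp, and 16 of them were narrower with auxin. The median of their width ratios was 0.456. The 27 narrower peaks went from 689 bp to 663 bp, a median ratio of 0.883, and 19 of them were narrower. No list holds a peak under 500 bp, and 5 of the 27 auxin partners were at that width, so narrow peaks had little room to become narrower and the difference between the classes is partly fixed by the split. The auxin list also had the higher limit on −log10 p, and the part of that limit in the narrowing was not tested.

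The lowest width ratio was that of chromosome 8, 128233628 to 128238260, where 4633 bp with water became 509 bp with auxin and the summit went from 97 to 51 reads (ratio 0.422, 0.294 to 0.598). Chromosome 12, 52538620 to 52544435, the broadest kept peak, went from 5816 bp to 917 bp. Chromosome 5, 115263972 to 115267119, went from 3148 bp to 659 bp, and its summits held 78 and 62 reads. In these 3 peaks the auxin summit lay 301, 126 and 149 bp from the water summit, so what remained was close to the highest point of the broad water peak. Few positions widened. The ratio was highest at chromosome 14, 94849175 to 94849819 (645 to 794 bp), chromosome 7, 149031 to 149700 (670 to 776 bp), and chromosome 4, 155506837 to 155508153 (1317 to 1475 bp). The summit moved farthest at chromosome 22, 37723394 to 37726023 (746 bp), followed by the chromosome 4 position just named (554 bp) and chromosome 19, 45411583 to 45412426 (369 bp).

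**Figure D2:**
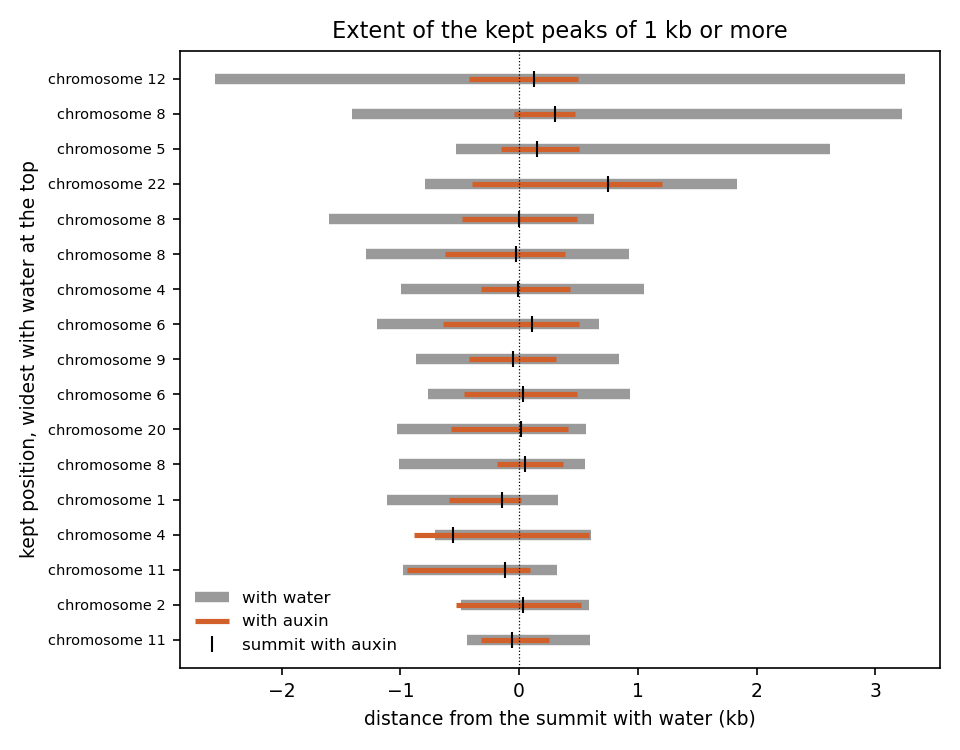
Extent of the 17 kept peaks of 1 kb or more, by distance in kb from the summit with water. Wide bars are the peaks with water, thin bars the peaks with auxin, and ticks the summits with auxin. In 16 of 17 the auxin peak is the narrower one, and most of them lie around the water summit.

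The lost positions included strong MED1 peaks. The 12 lost peaks with the highest fold had folds of 8.51 to 13.3 and 52 to 130 reads at the summit with water. All 12 were present with water and Nutlin-3a and in both WT conditions, and 4 of them with auxin and Nutlin-3a. The highest was chromosome 20, 30195833 to 30197116, with 87 reads and a fold of 13.3. Chromosome 13, 113526964 to 113527834, had 78 reads and a fold of 12.3, and was one of those 4. Chromosome 8, 128258066 to 128260634, had 130 reads, the most among the 12, and a fold of 11.03. They were followed by chromosome 9, 21558810 to 21560540 (67 reads), chromosome 11, 34620774 to 34622756 (78 reads), chromosome 12, 52673632 to 52675413 (69 reads), and chromosome 18, 3616811 to 3619112 (81 reads). The other 5 held 52 to 74 reads. They lay on chromosome 17 (39559849 to 39561308), chromosome 3 (111453529 to 111454926), chromosome 11 (65188346 to 65190729 and 34706522 to 34707421) and chromosome 6 (159125046 to 159127614). Of the 12, 10 were 1 kb or wider, against 4 of the 12 highest kept peaks. That width was reached by 156 of all 463 water peaks. It was reached by 42 of the 54 strong ones at a background of at most 4 times the lowest. The sets of 12 also differed in fold with water, 8.51 to 13.3 for the lost and 10.6 to 40.5 for the kept.

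A lost peak is not a position without MED1, because its signal may lie under the limit of the auxin list. The lists allow an upper limit on what was left. The auxin peaks with a background of at most 1.5 times the lowest had a −log10 p of at least 9.79, which takes 28 reads at the lowest background. If each lost position had the same relative background with auxin as with water, and a summit of that significance would have been listed, 364 of 419 lost peaks had a water summit above the height needed. Of these, 113 were over 1.5 times, 36 over 2 times and 3 over 3 times that height. Those 3 started at 128258066 on chromosome 8 (3.77 times), 30195833 on chromosome 20 (3.62 times) and 113526964 on chromosome 13 (3.35 times). With the lowest −log10 p of all auxin peaks as the limit, 412 lost peaks were above the height needed and 56 over 2 times. The water list held 54 strong peaks at a background of at most 4 times the lowest, 23 kept and 31 lost. With each lost peak set to the highest ratio the auxin list allowed, the median summit ratio over the 54 was at most 0.470. Choosing strong positions from the list with water and Nutlin-3a instead, so that chance highs of the water library do not choose them, gave 48 positions, 18 of 19 kept ones lower, a median ratio of 0.638 among the kept and a median of at most 0.560 over all.

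Most lost positions were present in the other lists made without auxin. Of the 419 lost peaks, 318 (75.9%) were listed with water and Nutlin-3a, 359 (85.7%) in WT cells with DMSO and 379 (90.5%) in WT cells with Nutlin-3a. Over all 463 water peaks, most of them lost ones, these shares were 77.5%, 85.1% and 91.4%. Of the 44 kept peaks, 41 (93.2%), 35 (79.5%) and 44 (100%) were listed there. With water and Nutlin-3a, the interval of the kept (81.8 to 97.7%) lay above that of the lost (71.6 to 79.7%). In the WT lists the intervals overlapped, and 8 kept peaks belong to a group, described below, that is defined by these lists. In all 3 lists were 286 lost peaks (68.3%), 32 kept peaks (72.7%) and 68.7% of all water peaks. Only 18 lost peaks were in no other list of the series. With auxin and Nutlin-3a, 20 of the 419 (4.77%, 3.11 to 7.26%) were listed, against 33 of the 44 kept positions (75.0%, 60.6 to 85.4%). The 8 kept members of that group are absent there by definition, so the 33 are among the 36 kept positions outside it. The kept share was similar in the 3 classes of summit height under 12 and higher above. It was 4.50% at heights under 6 (5 of 111), 5.03% from 6 to 8 (9 of 179), 5.22% from 8 to 12 (6 of 115), 28.6% from 12 to 16 (10 of 35) and 68.4% at 16 or more (13 of 19, 46.0 to 84.6%). These shares leave out the peaks at over 4 times the lowest background.

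**Figure D3:**
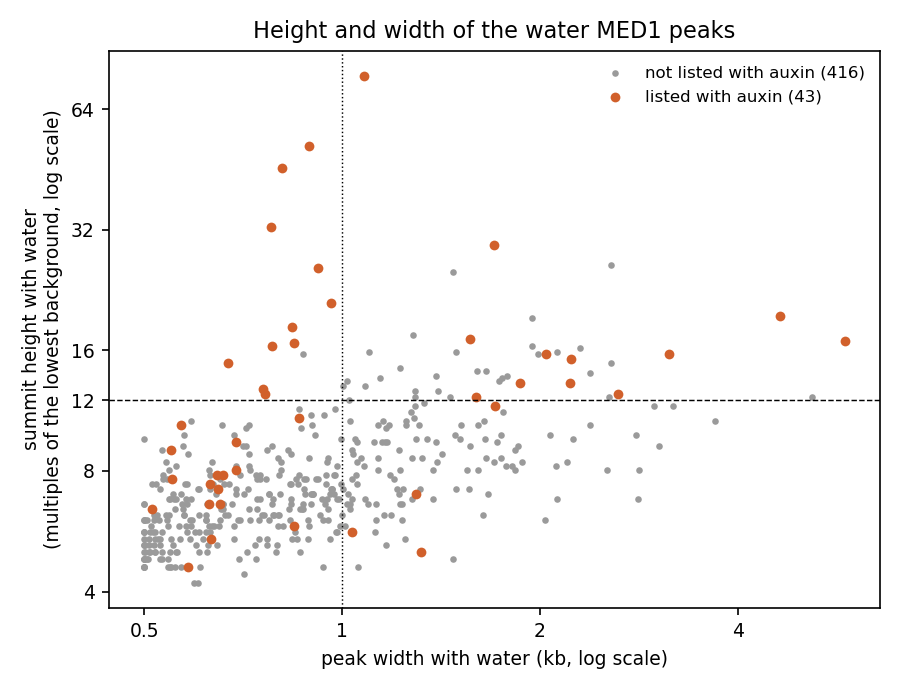
Summit height with water (multiples of the lowest background) against peak width (kb) for the water peaks at a background of at most 4 times the lowest, both on log scales. Orange points are the 43 peaks listed with auxin and grey points the 416 that were not; lines mark a height of 12 and a width of 1 kb. Above 12, narrow peaks are nearly all orange and broad peaks are mixed.

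Among strong water peaks, those that were narrow were kept most often. Under 1 kb, 11 of 12 were kept (91.7%, 64.6 to 98.5%). From 1 to 1.5 kb, 1 of 16 was kept (6.25%, 1.11 to 28.3%), the chromosome 2 position from 3522319. At 1.5 kb or more, 11 of 26 were kept (42.3%, 25.5 to 61.1%). The interval of the narrow peaks lay above those of both broader classes, but the shares did not fall steadily with width, and a limit at 1.5 kb in place of 1 kb gave 42.9% and 42.3% for narrow and broad peaks. Heights were not equal between the classes, with medians of 17.5, 13.5 and 15.0. The lost peak under 1 kb was the chromosome 13 position from 113526964, present again with auxin and Nutlin-3a. Against the limits above, the median summit ratio was at most 0.697 over the 12 strong peaks under 1 kb and at most 0.426 over the 42 of 1 kb or more. Below a height of 12, 16 of 293 peaks under 1 kb (5.46%) and 4 of 112 broader peaks (3.57%) were kept, and the intervals overlapped. With Nutlin-3a in both groups, 7 of 8 strong peaks under 1 kb, 3 of 7 from 1 to 1.5 kb and 13 of 23 broader ones were kept.

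**Figure D4:**
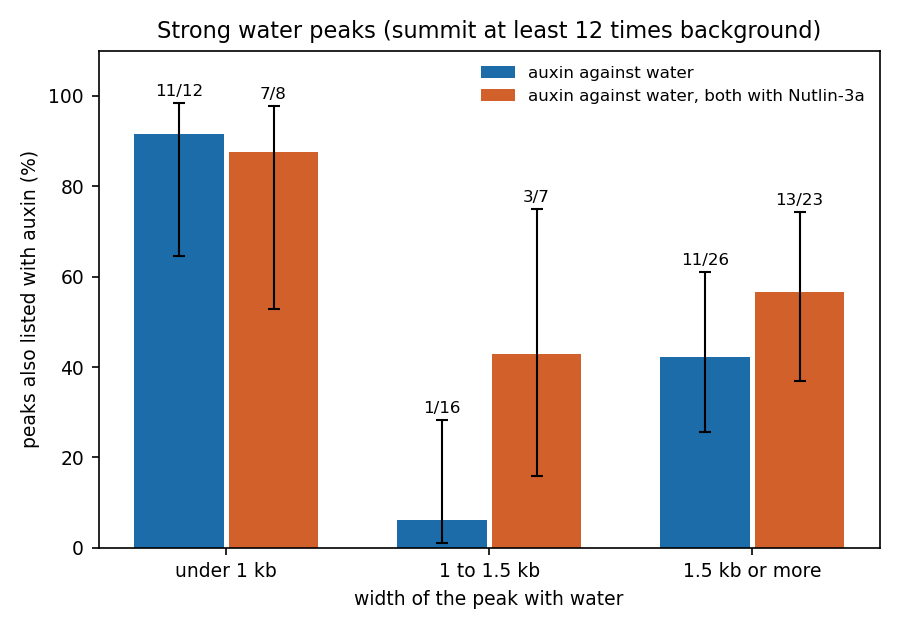
Share of strong water peaks (summit at least 12 times the lowest background) that were also listed with auxin, in % by width with water, without and with Nutlin-3a. Error bars are Wilson 95% intervals and the counts stand above them. Without Nutlin-3a the share is 91.7% under 1 kb, 6.25% from 1 to 1.5 kb and 42.3% above.

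Clusters of MED1 peaks kept a share of their peaks whose interval holds that of the whole water list. Joining water peaks at most 12.5 kb apart gave 292 regions, of which 18 had at least 4 peaks. These 18 held 93 peaks, and 5 of the 93 were kept (5.38%, 2.32 to 12.0%, against 9.50% of all water peaks), each in a region of its own, while 13 regions had no peak left. Their listed bases went from 102.7 kb to 3.46 kb. The largest, chromosome 6, 159118640 to 159160165, had 10 water peaks and kept its highest, 159151127 to 159152827. Chromosome 18, 3594367 to 3627234, had 7 peaks and kept 0 of them, and 0 of the 20 water peaks on chromosome 18 were kept (0 to 16.1%, which holds the 9.50% of all water peaks). Chromosome 18 was singled out after its values were seen, and 4 of 23 chromosomes kept no peak. On chromosome 8, the region 128222415 to 128243890 kept 1 of 6 peaks, and the neighbouring region 128258066 to 128278807 kept 0 of 6. Chromosome 4, 30757195 to 30772197, kept 1 of 6. Chromosome 20, 30181147 to 30199334, which holds the highest lost peak, kept 0 of 5, as did chromosome 8, 94885512 to 94897466, with a highest summit of 25.1 times the lowest background.

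The auxin list held 9 peaks (17.0%, 9.20 to 29.9%) with no partner in the water list. None of the 9 was listed with auxin and Nutlin-3a, while 6 were listed with water and Nutlin-3a, 3 in WT cells with DMSO and 5 in WT cells with Nutlin-3a. Of the 9, 4 belong to the group of 12 described below. For these 4, presence in WT cells with Nutlin-3a and absence from WT cells with DMSO are fixed by its definition. Their absence with auxin and Nutlin-3a is fixed in the same way. The highest fold, 6.77 from 48 reads, was at chromosome 4, 74283402 to 74283962. Chromosome 1, 161192118 to 161192625, had 35 reads (fold 4.83). Chromosome 4, 155490250 to 155490769, had 32 reads (fold 4.56) and lay 453 bp from a water peak. Chromosome 4, 49272489 to 49272991, with 29 reads (fold 4.15), and chromosome 19, 39339804 to 39340303, with 37 reads (fold 4.14), were close to the limit of the list. The chromosome 4 position from 49272489 and the chromosome 21 position from 11115717 were in no other list. The remaining 4 lay where the background was over 4 times the lowest. Of these, 3 lay on chromosome 21 (11108816 to 11109540, 11115717 to 11116307 and 11127614 to 11128176), with 65, 79 and 75 reads and folds of 1.96 to 2.39. The other was chromosome 1, 142536234 to 142536849, with 163 reads and a fold of 1.74. Among the 5 at a lower background, the highest summit was 7.72 times the lowest background, that of chromosome 4, 74283402.

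In the water list, 4 peaks lay at over 4 times the lowest background. Chromosome 1, 142537392 to 142538831, was kept with 161 and 212 reads (ratio 1.06, 0.856 to 1.30). Chromosome 6, 58776809 to 58778902, with 940 reads, a fold of 1.31 and a background 144 times the lowest, was lost, as were chromosome 11, 62608749 to 62609547, and chromosome 16, 33922241 to 33922941.

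A group of 12 positions was listed with auxin and in WT cells with Nutlin-3a, and neither in WT cells with DMSO nor with auxin and Nutlin-3a. The group was picked from these same lists by this pattern. It made up 12 of 53 auxin peaks (22.6%), 8 of 44 kept peaks and 4 of the 9 auxin-only peaks. Being listed with auxin is part of its definition, so these shares are partly fixed by it. Among all 463 water peaks, the group accounts for 9 (1.94%). Its auxin-only members are those on chromosome 1 (starting at 142536234 and 161192118) and chromosome 4 (74283402 and 155490250). Its kept members are 3 peaks on chromosome 11 (starting at 2017939, 116691654 and 116706830), 3 on chromosome 14 (94844829, 94847246 and 94849175), and those on chromosome 16 (72093906) and chromosome 19 (45411583). In the same line, all kept members were thus listed with water, and all of them also with water and Nutlin-3a. The auxin-only members were also listed with water and Nutlin-3a, apart from the chromosome 1 position from 142536234. A lost water peak on chromosome 11, 2016729 to 2017387 (33 reads), overlaps no auxin peak. It is counted with the group because it falls into the same merged region as the member from 2017939. The 8 kept members had a median summit ratio of 0.997, against 0.743 (log2 −0.43, −0.65 to −0.22) for the other 36 pairs, and the interval of the 8 (log2 −0.63 to 0.40) overlapped it. All 8 were among the 20 weaker pairs, whose median ratio was 0.997 as well, and the other 36 included the 23 strong pairs. The part of summit height in this contrast was not tested. Among the pairs with the largest rise in fold, 2 of 3 were members, chromosome 14, 94844829 (3.51 to 6.63, log2 0.92), and chromosome 11, 116706830 (4.33 to 6.63, log2 0.61). The third was chromosome 4, 155506837 (3.74 to 5.81, log2 0.63). Without the group, 36 of 454 water peaks were kept (7.93%, 5.78 to 10.8%). Its members had to be listed with auxin, so leaving them out lowers this share by construction. What sets the group apart was not tested. An exchange or mixing of the libraries behind the auxin lists without and with Nutlin-3a cannot be told apart from correct labels here, and it would change what the auxin list, its kept peaks and its auxin-only peaks stand for.

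The 32 positions kept both without and with Nutlin-3a allow the ratios to be set side by side. The comparisons come from separate libraries, and the difference between them was not tested. Over these 32, the median summit ratio was 0.728 without and 1.12 with Nutlin-3a. Over all kept pairs it was 0.776 (44 pairs) and 0.915 (47 pairs, log2 −0.13, −0.56 to 0.21), and the median ratio of fold was 0.829 and 0.883. Of 15 peaks of 1 kb or more, 13 had a lower summit with auxin in each comparison. The 2 others without Nutlin-3a were chromosome 1, 142537392, and chromosome 4, 155506837. Of 17 narrower peaks, 13 were lower without Nutlin-3a and 1 with it, chromosome 20, 1820010 (ratio 0.955). The ratios of 16 positions lay on opposite sides of 1. At 1 of them both intervals left out 1, chromosome 12, 13080161, with 0.632 (0.517 to 0.773) without and 1.34 (1.11 to 1.62) with Nutlin-3a. Over all narrow pairs, the median ratio was 0.802 without Nutlin-3a (27 pairs, log2 −0.32, −0.54 to 0.03) and 1.31 with it (22 pairs, log2 0.39, 0.19 to 0.61). Over all broad pairs it was 0.668 (17 pairs, log2 −0.58, −0.9998 to −0.24) and 0.581 (25 pairs, log2 −0.78, −1.04 to −0.53).

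**Figure D5:**
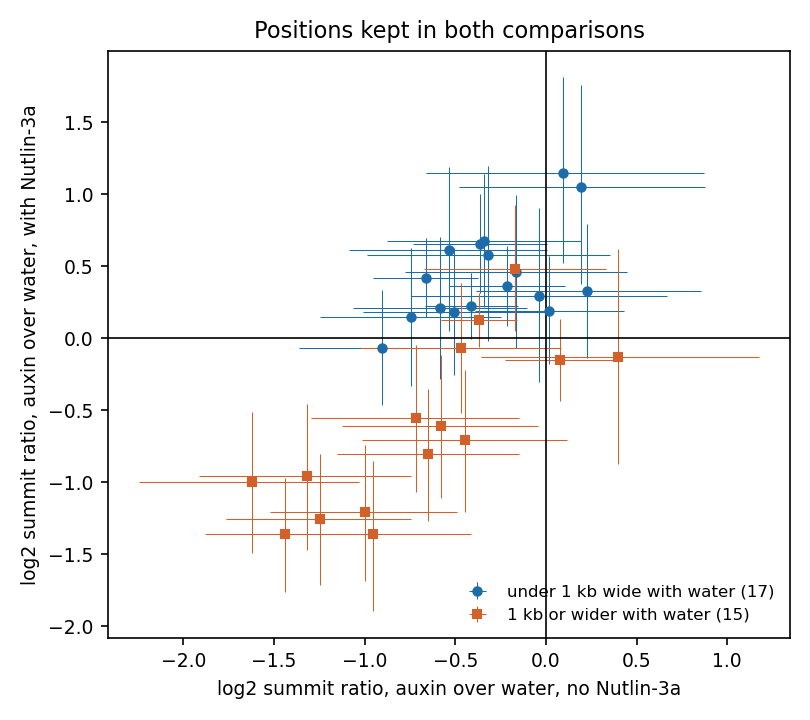
Log2 summit ratio, auxin over water, without Nutlin-3a (horizontal) and with Nutlin-3a (vertical) at the 32 positions kept in both comparisons. Bars are exact 95% intervals from read counts. Of 17 narrow peaks, 16 lie above 0 on the vertical axis, and 13 of 15 broad peaks lie below it.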

How the data were processed

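MED1 was measured by ChIP-seq in the MED14-AID line. The submitters' processing notes name Bowtie 0.12.9, MACS2 2.1.2 and the build hg19; their settings, and whether the input served as control, are not given in the sources used here. The deposited fold of a peak is a ratio over local background, the deposited −log10 values are of its p and q, and the deposited score follows the −log10 q. Start, end and summit are positions as the authors listed them, given here 1-based. Read counts at summits were recovered by inverting MACS2's formulas, fold = (pileup + 1)/(background + 1) and a Poisson upper tail; this assumes those formulas, a pileup scale of 1 with water and 0.979 with auxin, and the same genome size for both lists. All simulated peaks were recovered in a test of the script on simulated data. The backgrounds and the smallest width of 500 bp bear on what a list can hold: narrower signal was not listed. Overlap counts were checked against bedtools 2.31.1 (0 of 4 different). Scripts ran in Python 3.11.15 with pandas 2.3.3, numpy 2.4.6 and scipy 1.17.1. Named positions were the 12 highest folds among kept and among lost peaks, every auxin-only peak, the 3 extremes of fold ratio, width ratio and summit distance, and the group of 12. Members, lists and limits were chosen with earlier results of these data known. No hg19 annotation was used, so positions carry no gene names, and the planned gene lists were not analysed here. PCR reads without molecular identifiers are not independent molecules, so intervals cover counting error only.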

Additional observations from a re-analysis of the deposited data

Results flagged for a closer look

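At chromosome 12, 13080161 to 13080971, auxin went with a lower summit without Nutlin-3a (ratio 0.632, 227 and 179 reads) and a higher one with it (ratio 1.34, 183 and 276 reads). Of the 32 positions kept in both comparisons it was the one where both counting intervals left out 1 on opposite sides. There was 1 library per group, the difference between the comparisons was not tested, and it was picked out of 32.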

How the results depend on the processing

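No paired analysis was possible because each group had 1 library. Of 71 recomputed values, 60 stayed within the interval of the reported value and 11 did not. For a count or a limit, staying meant lying within 1.5 times of the reported value. A change of direction was looked for in the median log2 values alone, and 0 of them changed direction. The kept share was 13.4% when both lists were limited to a −log10 q of 10 or more, 16.6% with that limit in the water list alone, 39.6% against the 53 strongest water peaks and 13.8% with both auxin lists joined. The share of auxin peaks found in the water list was 64.2% with 50% reciprocal overlap and 39.6% with lists of equal length. With equal lengths the median log2 ratios at kept pairs were −0.62 for fold and −0.58 for summit height. Equal lengths and limits on q compare fewer and stronger water peaks by construction, and joined lists hold more auxin peaks. The kept share of strong narrow peaks was 100% (5 of 5) with a width limit of 800 bp and 42.9% (12 of 28) with 1.5 kb, because 1 of 16 strong peaks between 1 and 1.5 kb was kept. Lost peaks over 2 times the height needed numbered 56 with the lower limit in place of 36. The median log2 width ratio lay between −0.31 and −0.18 and the median summit distance between 31 and 55 bp over 9 alternatives each. The alternatives on height limits, strong peaks and summit ratios were added after the data were seen. Read counts limit single pairs: the interval of the summit ratio held 1 in 26 of 44, in 7 of 23 strong and 18 of 20 weaker pairs at a background of at most 4 times the lowest, and whether more depth would separate them from 1 was not tested.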
